A study of Mus musculus with 20 samples.

Results

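The potassium channel genes of the mouse were followed across neural stem cells and their transit amplifying progeny in the newborn periventricular zone. Genes were taken by name, as every symbol made of Kcn, 1 or more letters and a number, except Kcnj8 and Kcne4, and 90 of the 45705 genes in the deposited table met this rule. The name rule itself uses no measured value, but the members were chosen with earlier results of these data known. The 90 genes comprised 14 inward rectifiers (Kcnj), 14 two-pore-domain leak channels (Kcnk), 30 conducting voltage-gated alpha subunits (Kcna, Kcnb, Kcnc, Kcnd, Kcnh and Kcnq), 10 modifier alpha subunits (Kcnf, Kcng, Kcns and Kcnv), 8 calcium- or sodium-activated channels (Kcnma, Kcnn, Kcnt and Kcnu) and 14 accessory subunits (Kcnab, Kcne, Kcnip and Kcnmb).

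The cells came from Swiss Webster pups of both sexes at postnatal day 5, with all pups of a litter pooled, and carried no transgene or treatment. They were sorted on 4 surface antigens (CD133, LeX, CD140a and NG2) into neural stem cells (NSCs, CD133 and LeX positive without CD140a or NG2) and 4 progenitor populations named BNAP/GRP1, GRP2/MP3, GRP3 and PFMP. BNAP denotes bipotential neuronal-astrocytic progenitors, GRP glial-restricted progenitors, MP multipotential progenitors and PFMP the multipotential cells that respond to platelet-derived and fibroblast growth factors, so that BNAP/GRP1 and GRP2/MP3 are gates that each hold more than 1 kind of progenitor. Each population was sequenced once in each of 4 batches (n = 4 libraries for a population, 20 in all), and libraries are named here by population and batch number. Values are RPKM, in which read numbers are divided by the length of the gene and the size of the library, and fold changes and their standard errors (SE) are on the log2(RPKM + 1) scale, which understates the change of low genes.

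Potassium channels let potassium leave or enter the cell along its gradient and so set the resting potential and shape electrical responses. Inward rectifiers and two-pore-domain channels hold the membrane of astroglia near the potassium equilibrium, voltage-gated channels of the A type and the delayed rectifier type are known from neurons and oligodendrocyte precursors (OPCs), and calcium-activated channels tie the membrane potential to calcium entry. Microglia carry a further set, in which a two-pore-domain channel keeps the resting potential.

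All 5 libraries of batch 3 and the library BNAP/GRP1 4 stood apart from the rest, and NSC 4, GRP2/MP3 4 and GRP3 4 did so less strongly. In batch 3, 8 to 12 of the 90 genes reached 1 RPKM in a library, against 20 or more in every other library, and the genes summed to 74.7 to 84.8 RPKM whatever the population. Those 5 libraries also carried summed markers of alveolar macrophages at 978 to 1145 RPKM and of lung epithelium at 918 to 1048 RPKM, against at most 86.6 and 60.0 RPKM in the other 15. As estimated from the steps between low values, BNAP/GRP1 4 was the shallowest library (0.0395 of the depth of BNAP/GRP1 1, with a range of 0.0395 to 1.41 over all libraries). Yet 83.6% of all genes stood above 0 there, against 70.0% in BNAP/GRP1 1. This shallowest library had all 90 genes at 4.14 RPKM or more, with a median of 9.18 beside 8.30 for all genes of the table. It held the highest value of 71 of the 90 genes. NSC 4, GRP2/MP3 4 and GRP3 4 also had all 90 genes above 0, with medians over all genes of 1.61, 0.977 and 2.02 RPKM. That median was 0.00791 RPKM in PFMP 4 and at most 0.237 RPKM in batches 1 to 3. Low values in NSC 4, BNAP/GRP1 4, GRP2/MP3 4 and GRP3 4 therefore cannot be told apart from the general level of their library. Differences of low genes between PFMP 4 and those libraries carry the same limit. The main results are given also without batch 3, and the part of these libraries in each difference was not tested.

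**Figure D1:**
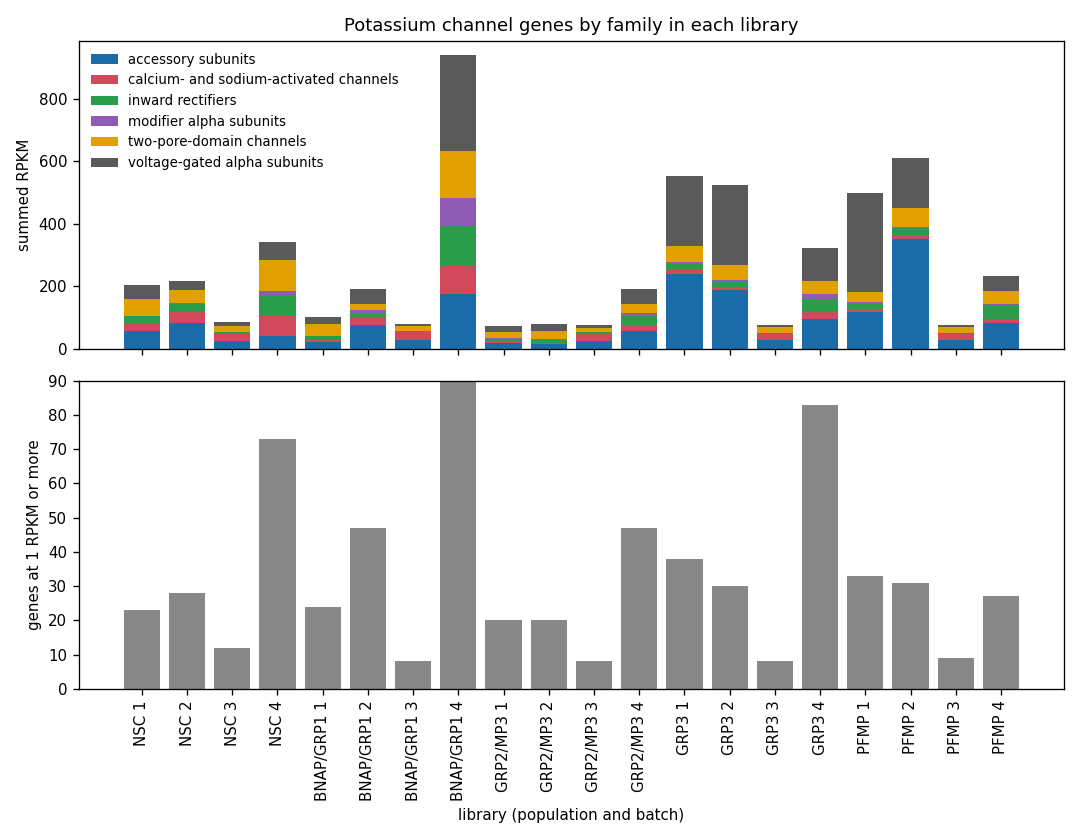
Upper panel, summed RPKM of the 90 potassium channel genes in each of the 20 libraries, with the bar divided by family. Lower panel, number of the 90 genes at 1 RPKM or more, which was 8 to 12 in the batch 3 libraries and 90 in BNAP/GRP1 4.

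Across the populations the most abundant genes were Kcnmb4, Kcnk2, Kcna6, Kcnip3, Kcnab2, Kcnd2, Kcnj10, Kcnd3, Kcnn4 and Kcnk1, in the order of their mean log2 level. Outside BNAP/GRP1 4, 18 of the 90 genes reached 10 RPKM in at least 1 library, and 4 stayed under 1 RPKM in every library. Among the families, 5 accessory subunits, 4 voltage-gated alpha subunits, 4 two-pore-domain channels, 3 inward rectifiers and 2 calcium- or sodium-activated channels reached that level, and 0 of the 10 modifier subunits did. The share of the summed RPKM held by the first 3 genes varied among libraries. It was 54.6%, 61.6% and 26.6% in GRP3 1, 2 and 4, 69.0%, 62.8% and 32.5% in PFMP 1, 2 and 4, and 48.2%, 52.3% and 36.6% in NSC 1, 2 and 4, while the batch 3 libraries gave 54.2% to 68.1%. In GRP2/MP3 1 and GRP2/MP3 2 the first 3 held 31.0% and 33.7%, led by Kcnk6 in both.

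**Figure D2:**
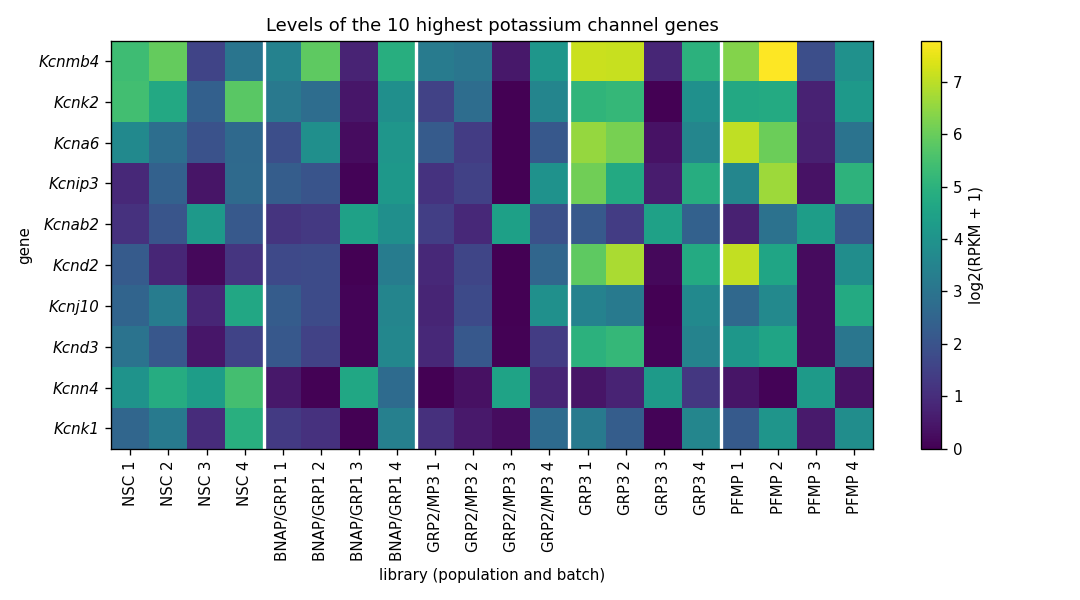
Levels, as log2(RPKM + 1), of the 10 potassium channel genes with the highest mean level (rows, highest at the top) in the 20 libraries (columns, by population and batch). Kcnmb4, Kcna6, Kcnd2 and Kcnip3 had their highest values in batch 1 or 2 of GRP3 or PFMP, Kcnn4 was bright in every NSC and every batch 3 library, and Kcnab2 was brighter in batch 3 than in any other library.

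The labels of the populations were set beside marker genes, outside batch 3. OPC markers summed to 372 to 3638 RPKM in GRP3 and PFMP and to at most 177 RPKM elsewhere. Their list holds Pdgfra and Cspg4, which encode the sorting antigens CD140a and NG2. Pdgfra alone held 96.9 to 803 RPKM in GRP3 and PFMP. Part of this difference may therefore follow from the sort itself and is no independent check. Microglial markers summed to 117 to 4430 RPKM in BNAP/GRP1 and 646 to 4407 RPKM in GRP2/MP3, against 14.0 to 104 RPKM in the NSC, GRP3 and PFMP libraries. Ependymal markers summed to 3503 to 15302 RPKM in NSCs and to at most 107 RPKM in the progenitors. Markers of astroglia and radial glia did not set NSCs apart. They summed to 4193 to 6066 RPKM in NSCs, 3682 to 15022 RPKM in GRP3 and 7026 to 12936 RPKM in PFMP. In BNAP/GRP1 they summed to 456 to 4982 RPKM and in GRP2/MP3 to 490 to 7257 RPKM. In these sorted pools more cells of a type and more RNA per cell cannot be told apart.

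Upstream stretches are shown for 3 genes described below: Kcnn4, Kcnd2 and Kcnk13. With the batch in the model, Kcnn4 was called higher in NSCs than in the progenitor mean. Kcnd2 was called higher in GRP3 than in NSCs, and in GRP3 with PFMP than in BNAP/GRP1 with GRP2/MP3. Kcnk13, a channel of microglia, was called in no comparison. Each is the 250 bases before the gene's RefSeq start on the plus strand of GRCm38.p6 (Kcnn4 chr7:24370013-24370262, Kcnd2 chr6:21215096-21215345, Kcnk13 chr12:99964249-99964498). Capitals mark a GC box (GGGCGG on either strand, seen as CCGCCC in Kcnn4) or the purine core GAGGAA that ETS-family factors such as PU.1 can bind.
Kcnn4: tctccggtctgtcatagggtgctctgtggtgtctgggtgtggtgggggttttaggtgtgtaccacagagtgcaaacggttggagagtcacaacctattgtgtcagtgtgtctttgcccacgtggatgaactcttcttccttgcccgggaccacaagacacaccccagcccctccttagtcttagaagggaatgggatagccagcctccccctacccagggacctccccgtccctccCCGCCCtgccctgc
Kcnd2: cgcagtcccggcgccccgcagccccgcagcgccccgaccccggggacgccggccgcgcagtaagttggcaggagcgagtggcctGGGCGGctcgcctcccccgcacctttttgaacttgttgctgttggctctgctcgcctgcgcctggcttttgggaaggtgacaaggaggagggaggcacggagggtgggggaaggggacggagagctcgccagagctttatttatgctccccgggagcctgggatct
Kcnk13: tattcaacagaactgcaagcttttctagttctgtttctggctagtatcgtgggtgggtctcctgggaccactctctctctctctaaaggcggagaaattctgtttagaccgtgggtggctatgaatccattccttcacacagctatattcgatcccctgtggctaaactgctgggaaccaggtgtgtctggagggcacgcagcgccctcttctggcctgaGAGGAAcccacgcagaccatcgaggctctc
RefSeq promoters (250 bases before to 50 after a start) were found for 65 of the 90 genes, with 90 starts. A GC box lay in 45.6% of them, against 32.7% of 32851 promoters of the same length, and GAGGAA or its reverse TTCCTC in 24.4% against 23.3%. These are letters in a window, with no binding measured.

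The first question was which channel genes separate NSCs from the progenitors. Kcnn4, which encodes the intermediate-conductance calcium-activated channel of lymphocytes, microglia and epithelia, was the clearest of them, with a mean of 26.1 ± 12.2 RPKM in NSCs (SD, n = 4). Its NSC libraries held 15, 27.5, 19.3 and 42.6 RPKM in batches 1 to 4. In BNAP/GRP1 it stood at 0.427, 0.0273, 24 and 5.64 RPKM, and in GRP2/MP3 at 0, 0.265, 21.7 and 0.748 RPKM.
In GRP3 the 4 batches gave 0.369, 0.705, 17.9 and 1.39 RPKM for Kcnn4, and in PFMP 0.368, 0.0600, 18.1 and 0.314 RPKM. Outside batch 3 every NSC library therefore lay above every progenitor library, whereas in batch 3 all 5 populations lay between 17.9 and 24 RPKM and NSC 3 was not the highest. Kcnn4 lies at chr7:24370263-24386690 on GRCm38.

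Without a batch term, limma's moderated test gave Kcnn4 a log2 fold change of 3.06 (SE 0.92) in NSCs against the mean of the 4 progenitors, with a Benjamini-Hochberg adjusted p of 0.124. With the batch number as a replicate block the same difference had an SE of 0.55 and an adjusted p of 0.00148. It remained under 0.05 in each of the 20 fits that left out 1 library and kept the block, with log2 fold changes of 2.57 to 4.10 and a highest adjusted p of 0.0305. Leaving out batch 3, with the block, gave 4.10 (SE 0.51, adjusted p = 8.88e-05).
Against single populations, with the block, Kcnn4 fell by 3.24 in GRP2/MP3 (adjusted p = 0.0105), by 2.97 in GRP3 (adjusted p = 0.0222) and by 3.36 in PFMP (adjusted p = 0.00851), all on the log2 scale. In BNAP/GRP1 the difference was -2.67 with an adjusted p of 0.0527, and 0.0051 without batch 3. It was also called without NSC 3 (adjusted p = 0.000213) or without BNAP/GRP1 4 (adjusted p = 0.0355). Single libraries decided some of these calls: the adjusted p reached 0.0773 in GRP2/MP3 (without NSC 1 or NSC 2), 0.161 in GRP3 (without any 1 of NSC 1, 2 and 4 or GRP3 1, 2 and 4) and 0.0698 in PFMP (without NSC 2 or PFMP 4). Outside batch 3 ependymal markers, like Kcnn4, were higher in every NSC library than in any progenitor library. Among NSC 1, 2 and 4 the order differed, with ependymal markers at 3503, 15302 and 5306 RPKM and Kcnn4 at 15, 27.5 and 42.6 RPKM. In batch 3 alveolar macrophage markers, like Kcnn4, were high in all 5 populations. The part of either kind of cell in the Kcnn4 levels was not tested.

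Kcnk2, a two-pore-domain leak channel that is opened by stretch, warmth and lipids and is present in astroglia, was high in NSCs and low in GRP2/MP3. The NSC libraries held 42.1, 25, 4.28 and 54.0 RPKM in batches 1 to 4, and the GRP2/MP3 libraries 1.89, 5.82, 0.0192 and 10.5 RPKM. BNAP/GRP1 gave 7.92, 5.83, 0.380 and 13.7 RPKM.
GRP3 was intermediate for Kcnk2 at 32.8, 35.5, 0 and 14.0 RPKM, as was PFMP at 25.1, 26.3, 0.676 and 17.3 RPKM. Within each batch NSCs lay above BNAP/GRP1 and GRP2/MP3, while GRP3 2 and PFMP 2 lay above NSC 2, and NSC 3 lay below the GRP2/MP3 libraries of batches 2 and 4. The gene lies at chr1:189207930-189402273 (GRCm38), where the GENCODE vM21 annotation places 4 other genes within its span.
For GRP2/MP3 against NSCs the log2 fold change of Kcnk2 was -2.61 with an adjusted p of 0.74 in limma without a batch term. With the block its SE was 0.53 and the adjusted p 0.00673, it stayed under 0.05 in all 20 fits without 1 library (highest 0.0401), and it was 0.0313 without batch 3. In NSCs against the mean of the progenitors Kcnk2 rose by 1.66 with the block (SE 0.42, adjusted p = 0.0258), a call that was lost without NSC 1, NSC 3 or NSC 4 (highest adjusted p 0.149) and without batch 3 (adjusted p = 0.144). The differences from NSCs in GRP3 and PFMP were -1.03 and -0.97 (SE 0.53, adjusted p = 0.533 and 0.562 with the block).

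Kcnn4 and Kcnk2 were the 2 of 68 potassium channel genes tested that were called with the block in NSCs against the progenitor mean. The model without a batch term called 0 of 68, where it called 1.98% of all genes tested, and 1 of 68 had an unadjusted p under 0.05 against 6.87% of all genes. With the block, 4.36% of all genes were called, so the share of the channel genes (2.94%) was not above that background. The median log2 fold change was -0.16 over the 68 channel genes and -0.07 over all genes.

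In the separate comparisons with NSCs, the model without a batch term called 0 of 68 channel genes in each of BNAP/GRP1, GRP2/MP3, GRP3 and PFMP, beside 0.76%, 1.12%, 1.05% and 1.14% of all genes. At an unadjusted p under 0.05 there were 2, 3, 2 and 3 channel genes, beside 5.9%, 5.79%, 5.62% and 5.88% of all genes. With the block the calls were 0, 2 (Kcnn4 and Kcnk2, both lower), 2 (Kcnn4 lower and Kcnd2 higher) and 1 (Kcnn4 lower), beside 2.09%, 3.08%, 2.6% and 2.79% of all genes. These 4 comparisons share the NSC libraries. The median log2 fold change was 0.55 in BNAP/GRP1 (all genes 0.38), -0.12 in GRP2/MP3 (all genes -0.08), 0.20 in GRP3 (all genes 0.05) and -0.14 in PFMP (all genes -0.20).

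The other astroglial genes of the leak and inward rectifier families were also lower on average in GRP2/MP3 than in NSCs, without passing the threshold. Kcnk1, a weakly conducting two-pore-domain channel, stood in NSCs at 4.96, 8.17, 0.968 and 29.2 RPKM, and was above the BNAP/GRP1 and GRP2/MP3 library of the same batch every time. Its log2 fold change in GRP2/MP3 was -1.77 (SE 0.52, adjusted p = 0.074 with the block). Kcnj10, the main inward rectifier of astrocytes, stood in NSCs at 4.75, 8.58, 0.793 and 24.7 RPKM, and differed from NSCs by -1.21 in GRP2/MP3 (adjusted p = 0.247 with the block).
Kcnj16, which joins Kcnj10 in a heteromeric channel that senses pH, held 15.1, 10.4, 2.63 and 2.67 RPKM in NSCs and at most 3.26 RPKM in GRP2/MP3, with a difference of -1.91 (adjusted p = 0.122 with the block). In batch 4, however, Kcnj16 was higher than in NSCs in all 4 progenitors, by 1.00, 0.22, 1.29 and 2.14 on the log2 scale in BNAP/GRP1, GRP2/MP3, GRP3 and PFMP, and Kcnj10 was higher in PFMP than in NSCs in 3 of 4 batches. Without batch 3, with the block, the GRP2/MP3 differences were -2.12 for Kcnk1 (adjusted p = 0.119), -1.33 for Kcnj10 (adjusted p = 0.449) and -1.93 for Kcnj16 (adjusted p = 0.268). All 4 genes of the astroglial list (Kcnj10, Kcnj16, Kcnk1 and Kcnk2) had a higher mean in NSCs than over the progenitors, with a median log2 fold change of 0.99, and 1 of the 4, Kcnk2, was called with the block. 
Without batch 3, 67 channel genes were tested. With the block, 1, 2, 2, 2, 1 and 5 of them were then called in BNAP/GRP1, GRP2/MP3, GRP3, PFMP, NSCs against the progenitor mean and the pair contrast described below, beside 1.9%, 2.96%, 2.66%, 2.78%, 3.83% and 3.2% of all genes. Without the block the counts were again 1, 2, 2, 2, 1 and 5, beside 1.23%, 1.95%, 1.84%, 1.88%, 2.71% and 2.23%.

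Direction within batches was counted as well, over the 68 genes tested. In GRP2/MP3, 15 were lower than in NSCs in all 4 batches (12% of all genes tested), Kcnk1, Kcnk2 and Kcnj10 among them, and 2 were higher (4.76%). In BNAP/GRP1, 6 were higher in all 4 batches (9.35%) and 3, again Kcnk1, Kcnk2 and Kcnj10, were lower (7.68%). In GRP3, 9 were higher (8.31%) and 7 lower (9.07%), and in PFMP 5 were higher (5.75%) and 11 lower (12.3%). NSCs were above the progenitor mean in all 4 batches for 5 genes (10.1%), Kcnmb1, Kcnk1, Kcnk2 and Kcnj10 among them, and below it for 7 (11.9%).
Over batches 1, 2 and 4 alone, 26 genes were higher in BNAP/GRP1 than in NSCs (24.6% of all genes), and the same held for 6 genes in GRP2/MP3 (8.55%), for 29 genes in GRP3 (21.5%) and for 13 genes in PFMP (12.7%). In those batches 17 were lower in PFMP (18.9%), and 32 were lower in NSCs than the progenitor mean (26.3%). 

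**Figure D3:**
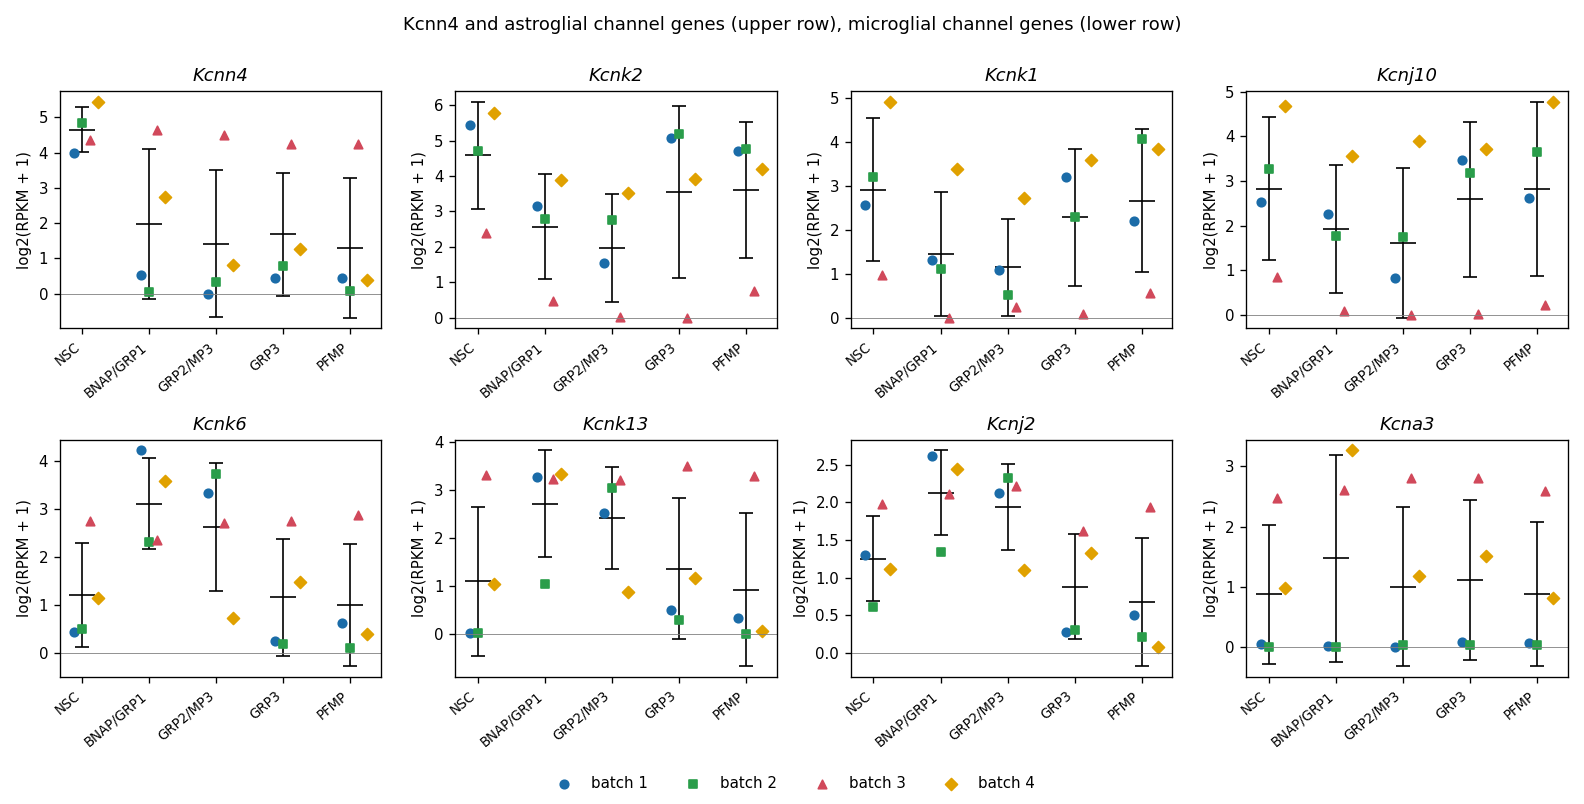
Levels, as log2(RPKM + 1), of 8 potassium channel genes in the 5 populations, with 1 point for each library coloured by batch, and the mean ± SD over the 4 libraries in black. Kcnn4 was at 15 RPKM or more in every NSC and every batch 3 library. In batches 1 and 2 Kcnk6, Kcnk13 and Kcnj2 were higher in BNAP/GRP1 and GRP2/MP3 than in the other populations. In batch 4 GRP2/MP3 was below GRP3 for all 3 genes. Those batch 4 values were 0.666 to 1.78 RPKM, near the medians over all genes of GRP2/MP3 4 and GRP3 4 (0.977 and 2.02 RPKM).

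The second question was which channel genes separate the OPC-marked pair, GRP3 and PFMP, from the pair with microglial markers, BNAP/GRP1 and GRP2/MP3. Kcnd2, the pore subunit of a fast inactivating A-type current, had the largest difference of the 68 genes tested. GRP3 held 56.4, 111, 0.126 and 26.3 RPKM in batches 1 to 4 and PFMP 135, 22.7, 0.169 and 13.0 RPKM. BNAP/GRP1 held 2.27, 2.43, 0.0144 and 8.61 RPKM, GRP2/MP3 0.851, 2.11, 0 and 5 RPKM, and NSCs 3.72, 0.777, 0.113 and 1.28 RPKM.
Outside batch 3 the GRP3 and PFMP libraries of Kcnd2 did not overlap with the other 3 populations, and in batch 3 all 5 libraries lay under 0.17 RPKM. Kcnd2 lies at chr6:21215503-21729805 (GRCm38).

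The pair contrast for Kcnd2 was 2.67 on the log2 scale, with an SE of 0.91 and an adjusted p of 0.773 in limma without a batch term. With the block the SE was 0.61 and the adjusted p 0.0415, and without batch 3 the contrast was 3.5 (SE 0.60, adjusted p = 0.0049 with the block). The call with all 4 batches was narrow: it was lost in 12 of the 20 fits without 1 library, those without any 1 of GRP3 1, 2 and 4, PFMP 1, 2 and 4, BNAP/GRP1 1, 2 and 4, GRP2/MP3 1 and 2 or NSC 4, where the adjusted p rose to at most 0.134. Against NSCs, Kcnd2 was higher by 3.29 in GRP3 (SE 0.86, adjusted p = 0.0472 with the block, and 0.00816 without batch 3). That call was lost in 12 of the 20 fits without 1 library, with an adjusted p of up to 0.268 (without any 1 of GRP3 1, 2 and 4, NSC 1, 2 and 4, BNAP/GRP1 2 and 3, GRP2/MP3 2 and 4 or PFMP 2 and 4). In PFMP the difference from NSCs was 2.82 (adjusted p = 0.102), and it was called without batch 3 (adjusted p = 0.0236) or without NSC 3 (adjusted p = 0.041).

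Kcnd3, the other A-type pore subunit detected at this level, ran in parallel at 31.3, 35.2, 0.0558 and 10.1 RPKM in GRP3 and 16.3, 22.2, 0.168 and 7.36 RPKM in PFMP. BNAP/GRP1 gave 3.4, 1.88, 0.0524 and 11.1 RPKM and GRP2/MP3 0.870, 3.42, 0.0385 and 1.6 RPKM. In batch 4 the BNAP/GRP1 library was thus above both GRP3 and PFMP, and the groups overlapped. All 90 genes stood at 4.14 RPKM or more in that library, with a median of 9.18 RPKM. Overlaps that rest on it cannot be told apart from its general level. Kcnip3, which encodes a calcium-binding protein that attaches to A-type channels and also acts in the nucleus, stood at 67.5, 25.8, 0.521 and 27.9 RPKM in GRP3 and 11, 98.4, 0.306 and 31.8 RPKM in PFMP.
In BNAP/GRP1 Kcnip3 gave 3.91, 3.07, 0.0487 and 16.9 RPKM and in GRP2/MP3 1.22, 1.82, 0 and 14.5 RPKM, so within each batch GRP3 and PFMP both lay above BNAP/GRP1 and GRP2/MP3. Kcna6, a delayed rectifier subunit of the Shaker family found in OPCs, held 93.4, 72.1, 0.294 and 10.9 RPKM in GRP3 and 130, 64.8, 0.613 and 6.83 RPKM in PFMP. In BNAP/GRP1 it held 2.67, 13.8, 0.190 and 16.1 RPKM and in GRP2/MP3 3.75, 1.61, 0 and 3.46 RPKM, with BNAP/GRP1 4 again above GRP3 4 and PFMP 4.

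Kcnmb4, a beta subunit of the large-conductance calcium-activated channel, reached the highest level of any of the 90 genes, 220 RPKM in PFMP 2. GRP3 held 142, 140, 0.800 and 31.2 RPKM, PFMP 80.4, 220, 2.64 and 14.5 RPKM, and NSCs 40.7, 61.2, 2.03 and 7.19 RPKM. BNAP/GRP1 held 9.93, 56.3, 0.728 and 28.2 RPKM and GRP2/MP3 8.35, 7.26, 0.431 and 16.1 RPKM. GRP2/MP3 was below GRP3 in every batch, whereas BNAP/GRP1 overlapped with PFMP. The pore subunit that Kcnmb4 attaches to, Kcnma1, was lower, at 12.7 RPKM in PFMP 2 and at most 4.30 RPKM in GRP3.
Kcnmb4 is overlapped on the other strand by 2 noncoding genes, Kcnd3 by Kcnd3os and Kcna6 by Gm26673. Whether the counting used strand was not stated, so these genes and their antisense partners cannot be told apart here.

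With the block and all 4 batches, the pair contrasts of these 4 genes did not pass the threshold: 2.10 for Kcnip3 (SE 0.53, adjusted p = 0.0543), 1.73 for Kcnd3 (SE 0.46, adjusted p = 0.0683), 2.19 for Kcna6 (SE 0.60, adjusted p = 0.0769) and 1.78 for Kcnmb4 (SE 0.49, adjusted p = 0.0763). Without batch 3, again with the block, Kcnip3 (2.64, adjusted p = 0.0198), Kcnd3 (2.28, adjusted p = 0.0214) and Kcna6 (2.78, adjusted p = 0.0258) were called higher, and Kcnmb4 was not (2.14, adjusted p = 0.0625). Leaving out 1 library of all 20 was enough in some fits: Kcnip3 was called without GRP2/MP3 3, GRP2/MP3 4, GRP3 3 or PFMP 3 (lowest adjusted p 0.0306), Kcnd3 without GRP2/MP3 3, GRP3 3 or PFMP 3 (lowest adjusted p 0.027) and Kcna6 without GRP3 3 or PFMP 3 (lowest adjusted p 0.0365). Kcnab3, the beta subunit of Shaker-type channels, was high in GRP3 1 and 2 (11.4 and 9.34 RPKM) and PFMP 1 and 2 (13.4 and 5.51 RPKM) and at or under 1.68 RPKM in the batch 4 libraries of both, with a contrast of 0.96 (adjusted p = 0.405 with the block).

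**Figure D4:**
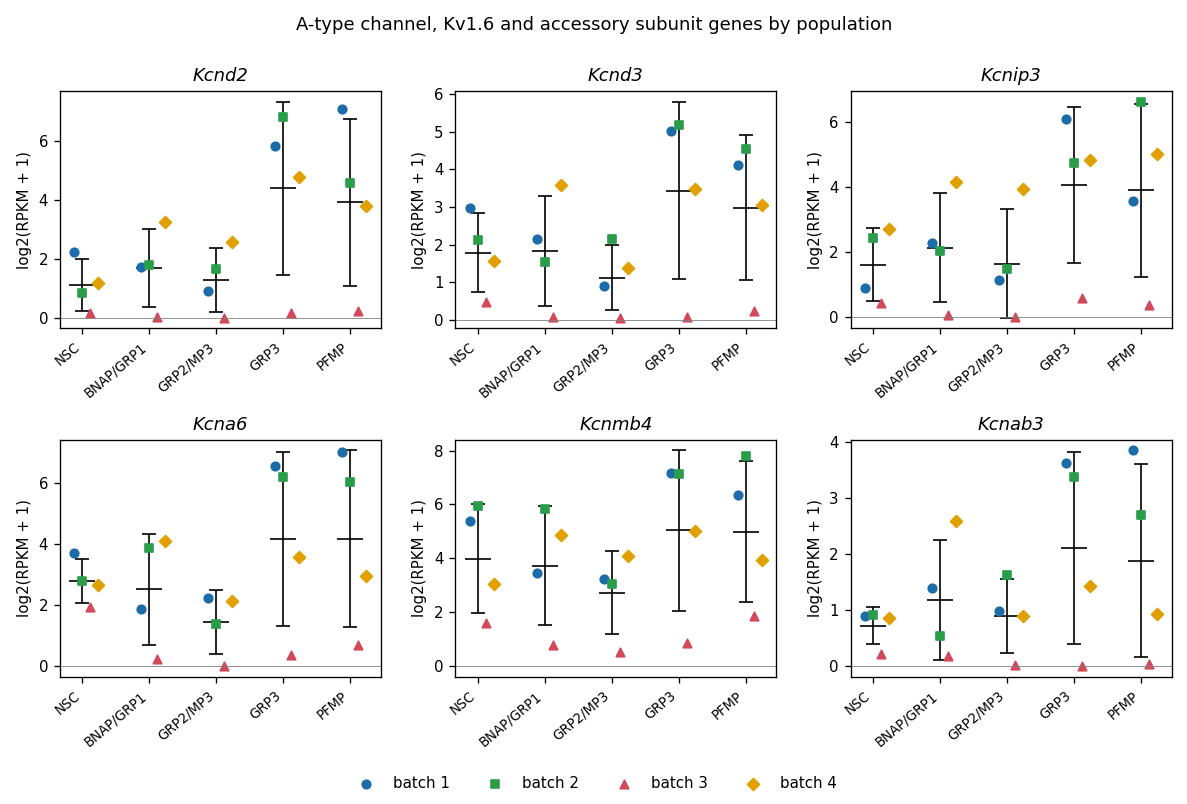
Levels, as log2(RPKM + 1), of 6 potassium channel genes in the 5 populations, with 1 point for each library coloured by batch, and the mean ± SD over the 4 libraries in black. In batches 1 and 2 GRP3 and PFMP were the 2 highest populations for Kcnd2, Kcnd3, Kcnip3, Kcna6, Kcnmb4 and Kcnab3. In batch 3 no population of these genes passed 2.87 RPKM. In batch 4 the distance to BNAP/GRP1 was small or reversed except for Kcnd2 and Kcnip3, and in BNAP/GRP1 4 all 90 genes stood at 4.14 RPKM or more.

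Over the 68 genes tested, the model without a batch term called 0 in the pair contrast, where it called 0% of all genes, and 7 had an unadjusted p under 0.05 beside 4.41% of all genes. With the block 1 gene was called (Kcnd2) beside 1.44% of all genes, and 17 had an unadjusted p under 0.05, 12 higher and 5 lower, beside 5.46% of all genes higher and 6.71% lower. Without batch 3, with the block, 5 of 67 were called, 4 higher (Kcnd2, Kcnd3, Kcnip3 and Kcna6) beside 1.15% of all genes and 1 lower (Kcnk6) beside 2.05%. By direction, 9 genes (Kcnd2, Kcnd3, Kcna6, Kcnmb4, Kcnip1, Kcnip3, Kcnk1, Kcnk2 and Kcnj10) were on average higher in GRP3 and PFMP in all 4 batches, beside 7.01% of all genes tested. The 1 gene lower in all 4 was Kcnj2, beside 8.21%, with a batch 4 limit given below. In batch 3 the sign could rest on values near 0. There Kcnk2 held 0 and 0.676 RPKM in GRP3 and PFMP, against 0.380 and 0.0192 RPKM in BNAP/GRP1 and GRP2/MP3. In the same order Kcnj10 held 0.00704 and 0.161 RPKM against 0.0638 and 0 RPKM. Over batches 1, 2 and 4 alone, 8 were lower, beside 20.5%. The median log2 fold change of the 68 was -0.13, and that of all genes -0.22.

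By role, 4 of the 4 astroglial genes and 4 of the 5 OPC genes (Kcnj10, Kcnj16, Kcna6 and Kcnd2, but not Kcna5) had a contrast above 0, with medians of 1.14 and 1.11, and 1 of these, Kcnd2, was called with the block. The lists share Kcnj10 and Kcnj16. Of the 10 neuronal genes (Kcna1, Kcna2, Kcnc1, Kcnq3, Kcnj3, Kcnj6 and Kcnj9 among them), 8 were above 0 with a median of 0.16, and 0 were called.

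**Figure D5:**
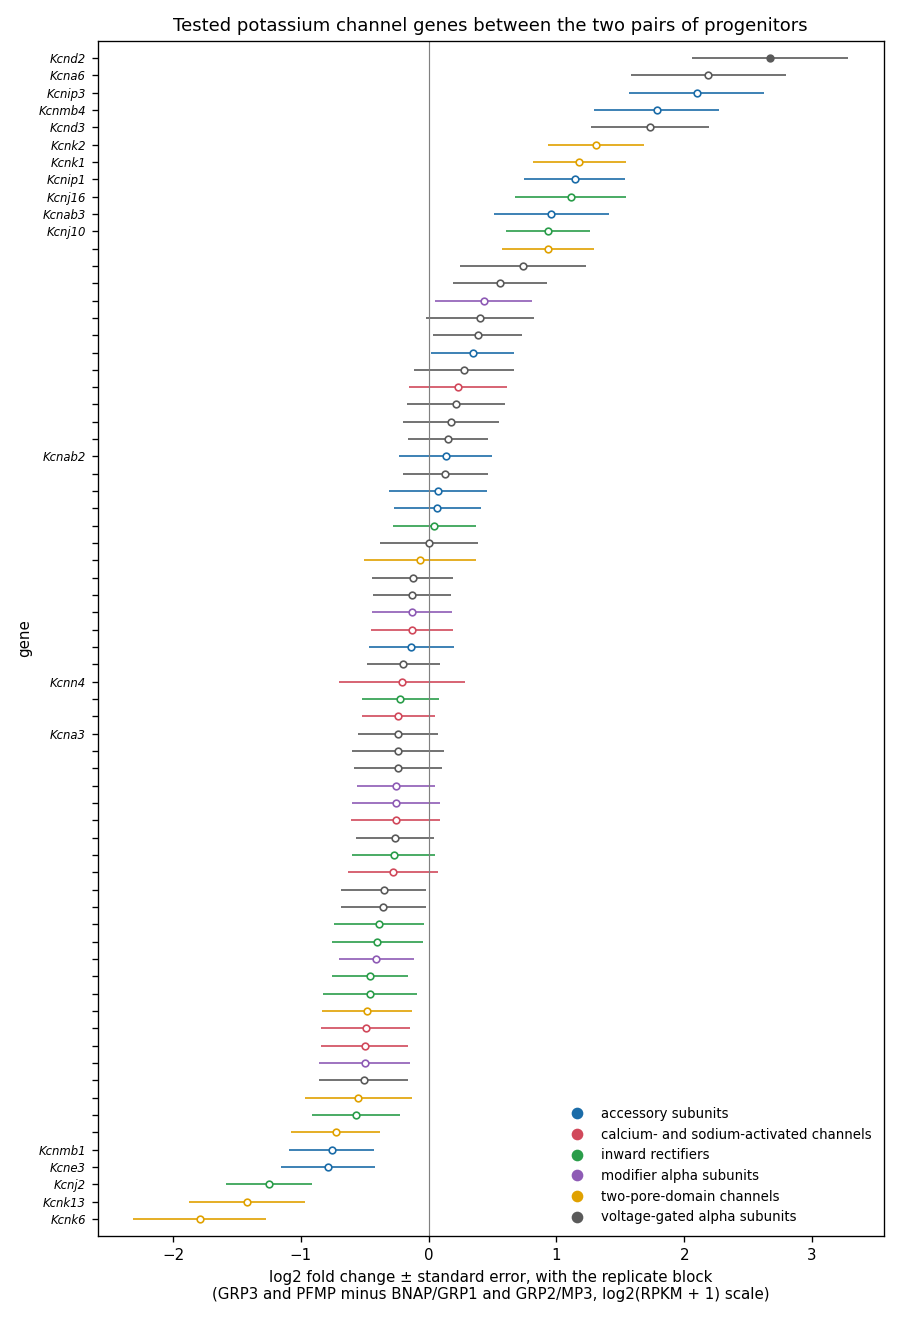
Log2 fold change ± SE, with the replicate block, of each of the 68 tested potassium channel genes between GRP3 with PFMP and BNAP/GRP1 with GRP2/MP3, sorted by size and coloured by family, with a filled symbol at an adjusted p under 0.05 and names for genes described in the text. Kcnd2 at 2.67 was the 1 filled symbol, and Kcnk6 at -1.79 the lowest value.

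The microglial list (Kcnk13, Kcnk6, Kcna3, Kcnj2 and Kcnn4) pointed the other way, with 0 of 5 above 0 in the pair contrast, a median of -1.25 and 0 called with or without the block. In BNAP/GRP1 4, however, Kcna3 and Kcnn4 stood at 8.62 and 5.64 RPKM, under that library's median of 9.18 RPKM over the 90 genes. The part of their contrasts that rests on this library cannot be told apart from its general level. Kcnk13, the two-pore-domain channel that sets the resting potential of microglia, stood at 8.60, 1.07, 8.35 and 9.04 RPKM in BNAP/GRP1 and 4.79, 7.23, 8.26 and 0.841 RPKM in GRP2/MP3. In NSCs it gave 0.0250, 0.0215, 8.94 and 1.07 RPKM, in GRP3 0.427, 0.223, 10.3 and 1.24 RPKM, and in PFMP 0.267, 0, 8.88 and 0.0478 RPKM. In batches 1 and 2 both microglia-marked populations exceeded the other 3, and in batch 3 every population lay between 8.26 and 10.3 RPKM.
Kcnk6, a two-pore-domain channel that is also present in immune cells, had a like profile, with 17.6, 3.93, 4.07 and 11 RPKM in BNAP/GRP1, 9.13, 12.2, 5.51 and 0.666 RPKM in GRP2/MP3, and 4.07 to 6.32 RPKM in all of batch 3. In the NSC, GRP3 and PFMP libraries of batches 1 and 2 it did not pass 0.54 RPKM. Kcnj2, an inward rectifier of microglia and muscle, stood at 5.13, 1.54, 3.3 and 4.41 RPKM in BNAP/GRP1 and 3.35, 3.98, 3.65 and 1.14 RPKM in GRP2/MP3. Its mean log2 level was lower in GRP3 with PFMP within each batch, but in batch 4 GRP2/MP3 lay below GRP3 (1.52 RPKM). In BNAP/GRP1 4 its 4.41 RPKM was near the lowest of the 90 genes (4.14 RPKM). The 11 RPKM of Kcnk6 there stood beside a median of 9.18 RPKM over the 90 genes. Neither value can be told apart from the general level of that library.

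Of these, Kcnk6 was called without batch 3 (-2.48, SE 0.57, adjusted p = 0.0234 with the block) and not with all batches (-1.79, adjusted p = 0.0979), unless BNAP/GRP1 3 (adjusted p = 0.0328) or GRP2/MP3 4 (adjusted p = 0.0385) was left out. Kcnk13 gave -1.42 (adjusted p = 0.143 with the block, and 0.0528 without batch 3) and Kcnj2 -1.25 (adjusted p = 0.0696, and 0.0703 without batch 3). Summed microglial markers were at 4407, 3284 and 646 RPKM in GRP2/MP3 1, 2 and 4, and Kcnk6 and Kcnk13 were lowest in GRP2/MP3 4. In BNAP/GRP1 1, 2 and 4 the markers were at 4430, 1465 and 117 RPKM, and there Kcnk13 was highest in BNAP/GRP1 4, the library with the lowest markers. Its 9.04 RPKM there lay near that library's median over the 90 genes (9.18 RPKM), so it cannot be told apart from the general level of the library. In batch 3 the markers were at 747 to 857 RPKM in all 5 populations. The part of these cells in the channel levels was not tested.
The remaining members of the list did not follow them. Kcna3, a Shaker-type channel of T cells and activated microglia, was at or under 0.0676 RPKM in all 10 libraries of batches 1 and 2, those with microglial markers at 1465 to 4430 RPKM included, and stood at 4.56 to 6.03 RPKM in all of batch 3. Kcnn4 stayed under 0.43 RPKM in the BNAP/GRP1 and GRP2/MP3 libraries of the same 2 batches. Kcnab2, a beta subunit of Shaker-type channels, shared the batch 3 pattern of Kcna3, with 17.7 to 20.9 RPKM in batch 3 and 0.635 to 13.7 RPKM elsewhere, and so did Kcne3, an accessory subunit, with 2.71 to 6.43 RPKM in batch 3 and at most 0.109 RPKM in 9 of the 10 libraries of batches 1 and 2 (2.53 RPKM in BNAP/GRP1 2).

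Genes of choroid plexus and mural cells were read at low levels. Kcnj13, an inward rectifier of choroid plexus and retinal epithelium, reached 22 RPKM in NSC 4, 4.99 RPKM in BNAP/GRP1 4 and at most 1.09 RPKM in the other 18 libraries, and Kcne2, its companion on the list, did not pass 1.18 RPKM outside BNAP/GRP1 4. Neither gene passed the filter on low values and neither was tested. Choroid plexus markers summed to 50.4 RPKM in NSC 4 and were higher in NSC 2, at 213 RPKM, where Kcnj13 was at 1.09 RPKM. Kcnmb1, the beta subunit of the large-conductance channel of smooth muscle, held 2.26, 2.65, 0.378 and 4.62 RPKM in NSCs and at most 0.214 RPKM in PFMP, with a log2 fold change of -1.55 in PFMP (SE 0.47, adjusted p = 0.104 with the block, and 0.0283 without BNAP/GRP1 4). Kcnmb1 lies within Kcnip1 on the opposite strand. Kcnk3, an acid-sensitive two-pore-domain channel and the other gene of the smooth muscle and mural list, had the opposite sign, with 0.160, 0.361, 0.0899 and 1.37 RPKM in NSCs, 0.293, 7.42, 0 and 0.554 RPKM in PFMP, which differed from NSCs by 0.51 on the log2 scale (SE 0.62, adjusted p = 0.87 with the block).

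The 22 genes that did not reach 1 RPKM in 4 or more libraries, and so were not tested, comprised 7 voltage-gated alpha subunits, 5 two-pore-domain channels, 4 modifier subunits, 3 inward rectifiers and 3 accessory subunits. Outside BNAP/GRP1 4 and Kcnj13 none of them passed 2.25 RPKM, the value of Kcnq1 in NSC 4. The 8 calcium- or sodium-activated channels were all tested, and 1 of them, Kcnn4, was called in any comparison.

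The order of the 90 genes within a library depended on the batch as well as on the population. As a description across genes, which are not independent replicates, the median Spearman correlation of RPKM was 0.65 between populations of the same batch (40 pairs) and 0.46 between batches of the same population (30 pairs). GRP3 and PFMP of the same batch had a median of 0.77 (4 pairs), and BNAP/GRP1 and GRP2/MP3 0.57 (4 pairs).

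Other genes of potassium handling were read beside the channels, as a list of 23 (pacemaker channels, A-type and large-conductance accessory proteins, sulfonylurea receptors, sodium pump subunits and cation-chloride cotransporters), of which 18 were tested. The model without a batch term called 0 of them in all 6 comparisons, beside 0% to 1.98% of all genes tested. Counts with the block are not reported here for this list.
Abcc9, the sulfonylurea receptor that pairs with the channel Kcnj8 in pericytes, held 4.2, 38.9, 0 and 17.5 RPKM in GRP2/MP3 and at most 2.9 RPKM elsewhere. In GRP2/MP3 against NSCs it rose by 2.62 in limma with the block (SE 0.65, adjusted p = 0.0312). Pericyte markers, a list that contains Abcc9, summed to 509, 448, 0.943 and 7332 RPKM in those libraries.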

How the data were processed

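RNA sequencing libraries of 5 sorted populations in 4 batches were analysed from the deposited table. Per the paper, the authors amplified polyadenylated RNA (messageAmp II), built TruSeq libraries, sequenced them on a NextSeq500, and processed reads with nf-core/rnaseq, FastQC 0.11.9, cutadapt 3.4, STAR 2.6.1 on GRCm38, Salmon 1.9.0 and DESeq2 1.26.0. The deposited values are RPKM, made by the authors; how Salmon estimates became RPKM, the gene lengths, the annotation release and the read totals are not given in the sources used here, so counting intervals could not be set. Steps between low values gave each depth as a ratio to that of BNAP/GRP1 1 (0.0395 to 1.41). Amplification of small RNA amounts can spread low genes widely.

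Values were taken as log2(RPKM + 1), a pseudocount of 1. Tests covered the 27614 genes that reached 1 RPKM in 4 or more libraries. limma 3.58.1 in R 4.3.3 (lmFit, contrasts.fit, and eBayes with a trended prior) was fitted to all 20 libraries, a mean per population and, as the study names none, no term for batch. Adjusted p-values are Benjamini-Hochberg over all genes tested, with a threshold of 0.05, two-sided. The 6 contrasts were each progenitor against NSCs, NSCs against the mean of the 4 progenitors, and GRP3 with PFMP against BNAP/GRP1 with GRP2/MP3. Batch numbers come from the labels and pair the samples: after population means were removed, median correlations within batches 1 to 4 were 0.337, 0.262, 0.769 and 0.581 (lowest 0.0341), against -0.204 between batches. The replicate block adds the batch to the model. The labels do not say what a batch consisted of, so p-values measure the spread between batches as labelled.

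Genes named are those called in any contrast with or without the block, the 10 most abundant, the 2 largest rises and falls of each contrast, and the members of the cell type lists (30 genes). Kcnab3, Kcne3, Kcnip1, Kcnma1 and Kcnq1 were named after their values were seen, as was Abcc9. Some genes that met the naming rule are not reported here. The members and lists were chosen with earlier results of these data known. Positions come from GENCODE vM21 (GRCm38, all 90 genes) and promoters from RefSeq (GRCm38.p6). Alternatives were the block, a pseudocount of 0.1, no filter, a mean RPKM of at least 5, quantile normalization, median-of-ratios scaling, each library left out, and batch 3 left out with and without the block. Each library left out with the block, and counts of direction over batches 1, 2 and 4, were added after seeing the data. On simulated data, 200 of the 27614 genes were shifted by a log2 of 6 in GRP3. Of these, 181 were called, with 10 others (178 and 7 with the block), and 1 gene in a comparison without change. That shift is larger than any log2 fold change given above. How the calls behave at smaller shifts, or with batch differences like those of these libraries, was not tested. The table holds 26 columns without name or values, which were not used. Raw reads were not analysed here. Figures were drawn with matplotlib 3.10.9 in Python 3.11.15.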

Additional observations from a re-analysis of the deposited data

Results flagged for a closer look

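Groups of 4 libraries were checked for 1 library far from its group, in 55 groups (the 10 most abundant genes and the summed level of the 90 genes, in each population), at Dixon's 95% critical value, which chance alone passes in about 1 of 20 groups. In 4 groups a library stood apart. Kcnk2 was at 0.676 RPKM in PFMP 3, where the other PFMP libraries held 17.3 RPKM or more. Kcnj10 was at 0.00704 RPKM in GRP3 3, where the others held 8.11 RPKM or more. Kcnn4 was at 18.1 RPKM in PFMP 3, where the others held at most 0.368 RPKM. The 90 genes summed to 190 RPKM in GRP2/MP3 4, where the others summed to 71.8 to 79.2 RPKM. Of these 4, 3 were libraries of batch 3.

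The pair contrast of Kcnd2 given above is also the difference between its changes against NSCs in GRP3 with PFMP and in BNAP/GRP1 with GRP2/MP3, since the NSC term cancels, and so is no further test. It was 2.67 on the log2 scale, with an adjusted p of 0.0415 in limma with the replicate block and 0.773 without it. GRP3 and PFMP were on average higher within 4 of 4 batches, and the call was lost in 12 of the 20 fits without 1 library.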

How the results depend on the processing

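The replicate block, which pairs libraries of the same batch, changed the count of channel genes called from 0 to 2 in GRP2/MP3 against NSCs, 2 in GRP3 against NSCs, 1 in PFMP against NSCs, 2 in NSCs against the progenitor mean and 1 in the pair contrast, and left 0 in BNAP/GRP1. Leaving out batch 3 gave 1, 2, 2, 2, 1 and 5 calls in BNAP/GRP1, GRP2/MP3, GRP3, PFMP, NSCs against the mean and the pair contrast, with the block and without it. Quantile normalization gave 1 call in NSCs against the mean. Leaving out 1 library without the block gave 0 calls in each comparison, except 0 to 1 in NSCs against the mean. With the block, leaving out 1 library gave 0 to 1 calls in BNAP/GRP1, 1 to 4 in GRP2/MP3, 0 to 3 in GRP3, 0 to 2 in PFMP, 1 to 4 in NSCs against the mean and 0 to 6 in the pair contrast. A pseudocount of 0.1, no filter, a mean RPKM of at least 5 and median-of-ratios scaling gave 0 calls in each of the 6 comparisons. None of 26 log2 fold changes followed through these settings changed sign. The cause of these shifts was not tested.

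Counted over batches 1, 2 and 4 alone, 26 in place of 6 genes were higher in BNAP/GRP1 than in NSCs, 6 in place of 2 in GRP2/MP3, 29 in place of 9 in GRP3 and 13 in place of 5 in PFMP, 17 in place of 11 were lower in PFMP, 32 in place of 7 were lower in NSCs than the progenitor mean, and 8 in place of 1 were lower in the pair contrast. Fewer batches make a shared direction easier to reach. Depth is known only in relative terms, and BNAP/GRP1 4, with every channel gene at 4.14 RPKM or more, limits every comparison that holds it. The medians over all genes of NSC 4, GRP2/MP3 4 and GRP3 4 (1.61, 0.977 and 2.02 RPKM) limit the reading of low genes in batch 4 as well.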
